A study of Mus musculus with 8 samples.

Results

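The genes described here are those of the chaperones of the endoplasmic reticulum (ER) and of the unfolded protein response. They were taken by gene symbol from a list of 36 that was chosen with earlier results of these data known. All 36 had a row in the deposited table of 16369 genes. The data are RNA-seq of 8 libraries of MLO-Y4, an established mouse osteocyte cell line, all from cells seeded in fluid chamber slides and put under flow (shear stress 2 Pa, 4 cycles). In 4 libraries, labelled H19 silenced, an antisense oligonucleotide (ASO) against the long non-coding RNA H19 was used; the other 4, labelled control and WT, are called NC in the table. The labels do not say which oligonucleotide, if any, the controls were given, and their treatment text names the silencing for all 8 samples alike. No library came from cells without flow, and the labels do not tell separate cultures from repeat preparations. The p-values therefore rest on the spread among these libraries, which may be technical.

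Proteins that are secreted or built into membranes fold in the ER with the help of chaperones such as BiP, of lectins that hold glycoproteins, and of isomerases that form disulfide bonds. When unfolded protein builds up, 3 sensors in the ER membrane respond: IRE1 (gene Ern1) splices the mRNA of the transcription factor XBP1, ATF6 is cleaved to release a transcription factor, and PERK (gene Eif2ak3) slows translation and favours that of ATF4, which acts with CHOP (gene Ddit3). Cells of the bone lineage secrete collagen, which needs chaperones of its own. The members were read in 2 branches, 25 genes for folding and degradation (here the chaperone branch) and 11 sensors, transcription factors and their effectors (the sensor branch).

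Libraries held 19501984 to 19914209 estimated reads. Across the whole table, 1790 of 12227 tested genes, 14.6%, differed between ASO and control (adjusted p under 0.05 by the quasi-likelihood test of edgeR with Benjamini-Hochberg correction, 4 libraries against 4), with 7.11% higher and 7.53% lower. Leaving out 1 library took that number as low as 1105 (control replicate 2 left out), with 1129 for ASO replicate 4 and 1191 for ASO replicate 3. Samples 1 and 2 were also read apart from samples 3 and 4, a division that the labels do not give. The shift from samples 1 and 2 to samples 3 and 4 was alike in both groups for some members and not for others. In Xbp1 it was -0.21 in control and -0.21 with the ASO, and in Manf 0.02 and 0.34 (log2 difference). Within samples 1 and 2 alone 1036 genes passed, and within samples 3 and 4 alone 2135. H19 itself is not analysed here, so the labels were not checked against it. Levels are given in TPM (transcript abundance scaled by length and depth). Of a list of osteocyte and osteoblast markers, Col1a1, Gja1 and Pdpn were abundant, at 1687, 328 and 169.5 TPM in control. Dmp1 was at 1.14 TPM, and Sost and Mepe had at most 2 and 1 reads in any library. Of the 9 tested, 3 were higher with the ASO, Alpl (log2 fold change 0.37), Sp7 (0.43) and Pdpn (0.22). Another 2 were lower, Dmp1 (-1.46) and Bglap (-0.60), while Col1a1, Gja1, Runx2 and Phex did not pass. Among markers of other cells, the summed level of 5 myeloid genes was 11.1 to 15.7 TPM in control and 30.2 to 38.1 TPM in ASO libraries. Most of it was Cd68 (10.4 and 29.8 TPM), which was higher (log2 fold change, ASO over control, 1.54, adjusted p = 1.7e-05). Lyz2, the next most abundant, was at 2.69 and 2.20 TPM and did not pass (-0.27, adjusted p = 0.43). Csf1r was at 0.76 and 1.205 TPM, with all ASO libraries above all controls, and did not pass (0.68, adjusted p = 0.052). Ptprc had 2 to 13 reads and Itgam 0 to 4. The sum of 3 chondrocyte genes, nearly all Sox9, was 88.0 to 129 TPM in control and 63.7 to 85.5 TPM with the ASO, and 2 endothelial genes summed to at most 0.46 TPM. The part of these in the results below was not tested.

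The promoters were searched for motifs of the response. In RefSeq's promoter sequences (GRCm38.p6, from 250 bases before to 50 bases after each annotated start), 32 of the 36 members had an entry, 22 in the chaperone branch and 10 in the sensor branch; Hyou1, Manf, Fkbp10 and Atf6 had none. The ER stress element, known to bind ATF6 together with the factor NF-Y, reads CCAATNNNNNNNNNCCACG, and was searched for on both strands with no mismatch. It occurred in 39 of 32851 promoters, 0.119%. Among members it occurred in 9 genes, all of the chaperone branch, and in 0 of 10 of the sensor branch. The share over the whole set counts promoters, those of the members among them, while the members are counted as genes (32 genes with 34 promoters). A match is a description of letters, and no match says only that these exact letters were not in this window. The windows that hold the element are given here because they include both members that changed with the ASO and members that did not. Each is written along the gene's own strand, with the element in capitals; where it lies on the opposite strand it reads as CGTGG, 9 bases and ATTGG.
Calr, chr8:84847060-84847108, minus strand: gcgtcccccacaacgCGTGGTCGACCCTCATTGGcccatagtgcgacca
Hsp90b1, distal, chr10:86705623-86705671, minus strand: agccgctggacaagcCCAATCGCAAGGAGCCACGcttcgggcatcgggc
Hsp90b1, proximal, chr10:86705518-86705566, minus strand: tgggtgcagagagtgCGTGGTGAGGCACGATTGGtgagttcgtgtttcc
Creld2, chr15:88819505-88819553, plus strand: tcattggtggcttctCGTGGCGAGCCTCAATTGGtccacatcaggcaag
Pdia6, chr12:17266476-17266524, plus strand: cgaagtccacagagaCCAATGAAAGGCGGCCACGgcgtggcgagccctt
Hspa5, chr2:34772010-34772058, plus strand: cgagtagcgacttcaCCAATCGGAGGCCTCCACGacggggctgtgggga
Canx, chr11:50325785-50325833, minus strand: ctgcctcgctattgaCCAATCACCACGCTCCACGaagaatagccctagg
Dnajc3, chr14:118937812-118937860, plus strand: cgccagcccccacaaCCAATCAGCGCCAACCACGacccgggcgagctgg
Ero1b, chr13:12565667-12565715, plus strand: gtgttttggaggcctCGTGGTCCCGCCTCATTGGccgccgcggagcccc
Syvn1, chr19:6046517-6046565, plus strand: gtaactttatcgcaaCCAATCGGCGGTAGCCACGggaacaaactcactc

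Of these 9 genes, Calr, Hsp90b1, Creld2 and Pdia6 were higher with the ASO and the other 5 did not pass, as described below. For comparison, 8 of all 25 genes of the chaperone branch and 7.11% of all tested genes were higher. Whether the element goes with the call was not tested. The remaining higher members of the chaperone branch, Sdf2l1, Pdia3, Pdia4 and Serpinh1, held no exact match. A second form, ERSE-II (ATTGG, 1 base, CCACG), was found in Herpud1 and Dnajb11 and in 12 of all 32851 promoters (0.0365%). The composite site of C/EBP and ATF factors that ATF4 is known to use, TGATGNAA, is short and occurred in 1304 promoters (3.97%). It was found in 6 members, which were Atf3, Asns, Chac1 and Trib3 of the sensor branch and Herpud1 and Txndc5 of the chaperone branch. The windows of 3 of them are given because these genes had log2 fold changes of either sign with the ASO, of which only that of Asns passed. The motif is in capitals and, on the opposite strand, is written as its reverse complement.
Asns, chr6:7693210-7693247, minus strand: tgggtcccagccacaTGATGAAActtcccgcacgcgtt
Chac1, chr2:119351034-119351071, plus strand: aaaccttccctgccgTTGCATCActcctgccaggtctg
Atf3, chr1:191183421-191183458, minus strand: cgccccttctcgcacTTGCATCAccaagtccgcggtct

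**Figure D1:**
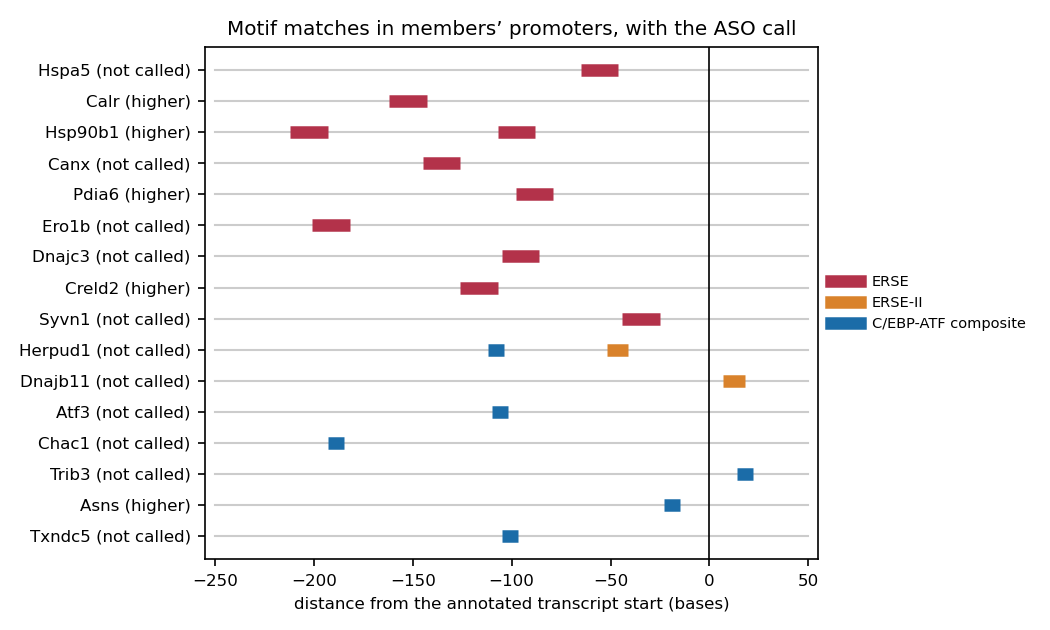
Position of motif matches in the promoters of the 16 members that hold one, in bases from the annotated transcript start (0), with the call of each gene in brackets. The first bases of the ER stress elements lie between 212 and 44 bases before the start, in chaperone-branch genes. With the ASO 4 of these genes were higher and 5 not called, while 8 of all 25 genes of the branch were higher.

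Levels were compared between genes in TPM, which is scaled by length. The members spanned from 4.69 TPM for Ero1b to 858 TPM for Calr in control (means, n = 4), and 15 of the 36 were above 100 TPM. Calr, P4hb, Atf4 and Hspa5 were the most abundant, at ranks 185, 222, 242 and 247 of 16369 genes. The sensors themselves were low, with Atf6 at 31.2 ± 0.34 TPM, Ern1 at 19.4 ± 3.22 TPM and Eif2ak3 at 8.81 ± 0.82 TPM (SD). All 36 passed the filter on low counts, the lowest count of a member in a library was 115 reads, and in all 36 the deposited counts were whole in every library.

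**Figure D2:**
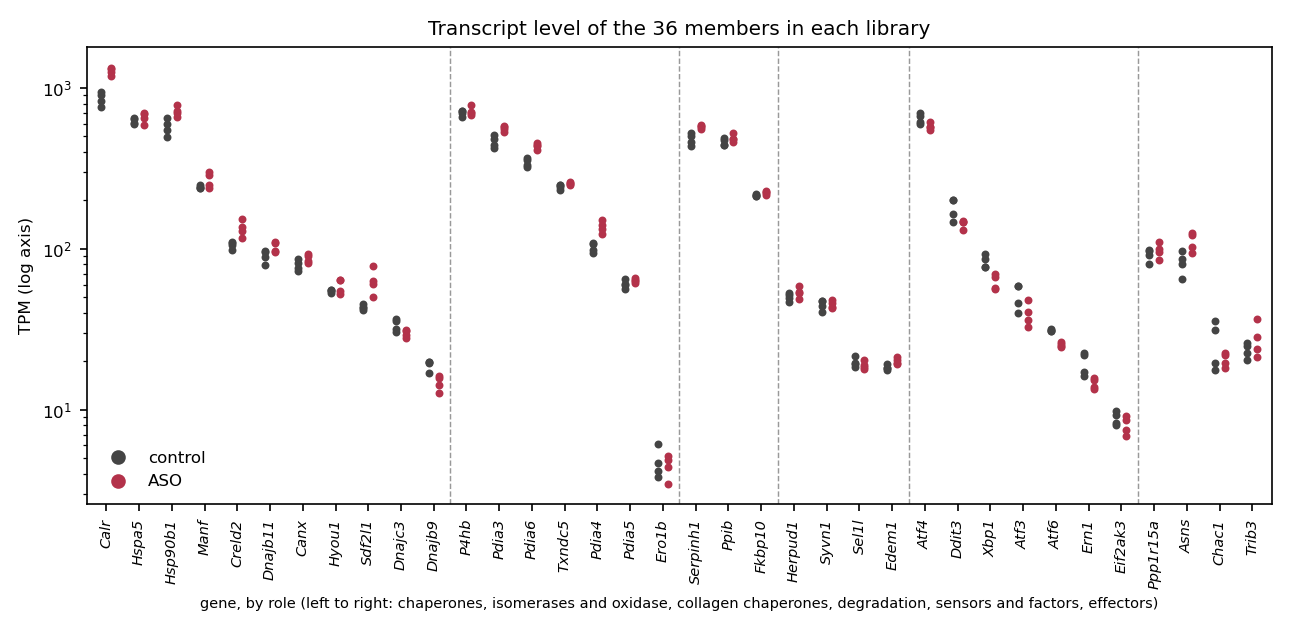
TPM of each member in each of the 4 control (grey) and 4 ASO (red) libraries, on a log axis, ordered by role and by control level. Control means run from 4.69 TPM for Ero1b to 858 TPM for Calr.

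With the ASO, 9 of the 36 members were higher and 5 lower, against 7.11% and 7.53% of all tested genes. Members and branches were chosen with earlier results of these data known, so the counts beside these shares are description alone. In the chaperone branch 8 of 25 rose and 1 fell, with a median log2 fold change (ASO over control) of 0.12, and in the sensor branch 1 of 11 rose and 4 fell, with a median of -0.28. The median over all tested genes was 0.0026. The groups did not overlap in 14 members (10 with all ASO libraries above control and 4 below), against 19.1% of the tested genes of the whole table, 9.77% above and 9.36% below. The 8 rises of the chaperone branch held in each of the 8 fits that left out 1 library. The falls did not hold as well: the number of lower members was 3 without control replicate 1 or 4 or ASO replicate 3 or 4. Within samples 1 and 2 alone 6 members were higher and 5 lower, and within samples 3 and 4 alone 14 were higher and 6 lower; whether these parts differed was not tested. With the division of the samples as a term in the fit, the 14 called members and 7 more passed, Manf, Dnajb11, Edem1 and Trib3 as higher and Atf3, Atf4 and Chac1 as lower. The labels do not give this division, and more genes of the whole table passed with the term as well. These 7 are therefore not counted as called here. In bulk RNA, fewer cells of a kind and less RNA per cell cannot be told apart.

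**Figure D3:**
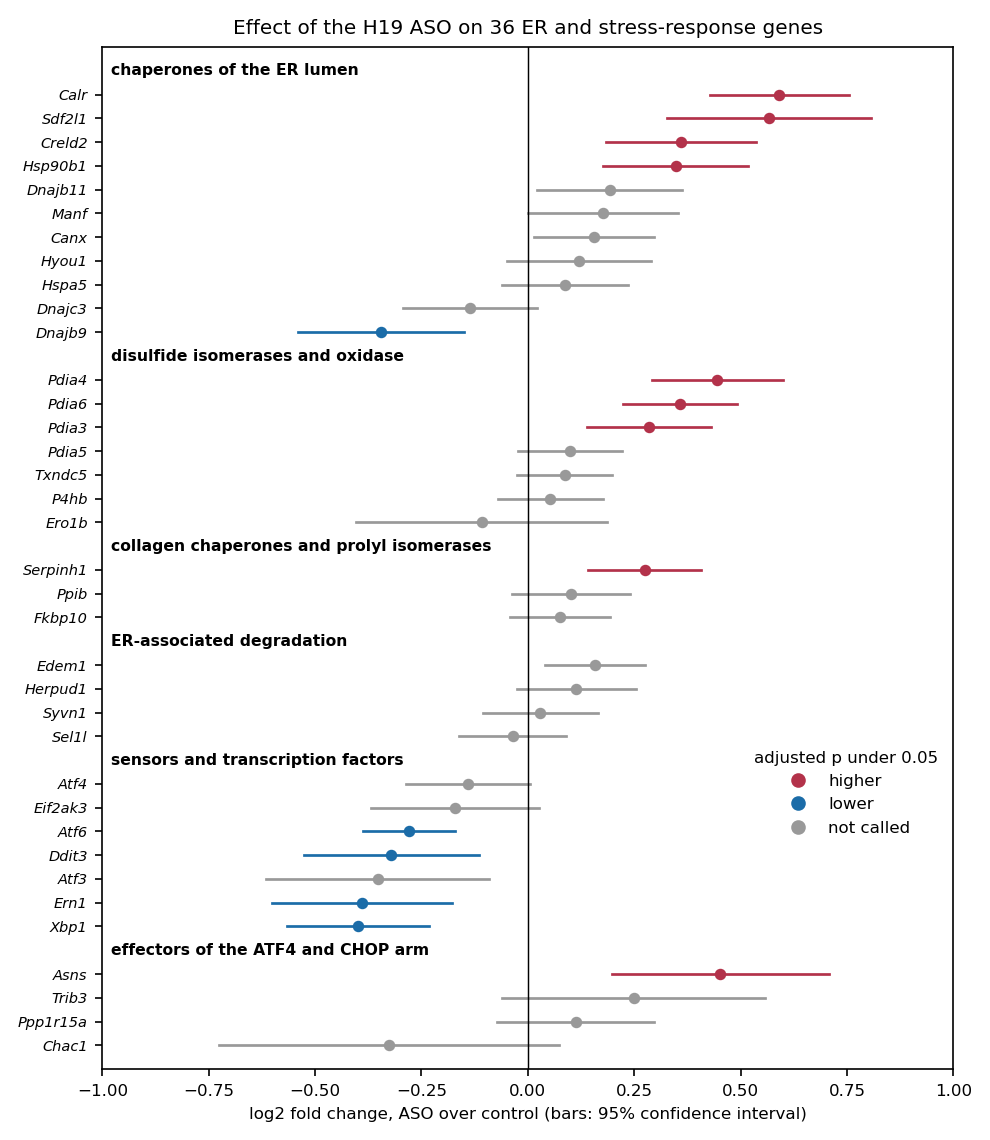
Log2 fold change (ASO over control) of the 36 members by role, with 95% confidence intervals from the edgeR fit. The 9 higher members (red) are 8 folding genes and Asns, and the 5 lower members (blue) are 4 sensors or transcription factors and Dnajb9.

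Calreticulin and the chaperones of the BiP system came first. Calr, the calcium-binding lectin chaperone (gene 12317, chromosome 8, 84842088 to 84846931, GRCm38.p6), was at 902, 758, 945 and 825 TPM in control replicates 1 to 4 and at 1182, 1259, 1317 and 1334 TPM in ASO replicates 1 to 4. Every ASO library lay above every control library, and the rise was 1.51-fold (log2 fold change 0.59 ± 0.08 SE, adjusted p = 3.6e-04). Sdf2l1, a partner of the ER J-domain protein encoded by Dnajb11, was at 45.2, 41.8, 43.2 and 42.6 TPM in control and 50.4, 60.3, 63.2 and 78.5 TPM with the ASO (0.57 ± 0.11, adjusted p = 0.0050). Its control libraries were close together while the ASO libraries were spread, replicate 4 being the highest. Within samples 1 and 2 alone its log2 fold change was 0.34 (adjusted p = 0.066), and within samples 3 and 4 alone 0.77 (adjusted p = 1.3e-06).

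Hsp90b1, the HSP90 paralogue of the ER, was at 593, 493, 647 and 545 TPM in control and 662, 783, 698 and 716 TPM with the ASO (log2 fold change 0.35 ± 0.08, adjusted p = 0.011). Creld2, an ER protein gene known to be induced by ER stress, was at 108, 106, 111 and 98.6 TPM in control and 117, 128, 136 and 153 TPM with the ASO (0.36 ± 0.08, adjusted p = 0.011). Neither gene's groups overlapped. Creld2 did not pass within samples 1 and 2 alone (0.20, adjusted p = 0.12).

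Hspa5, which encodes BiP, the central chaperone of the response and the classic marker of its activation, did not pass. It was at 646, 597, 641 and 606 TPM in control and 585, 646, 695 and 686 TPM with the ASO, so that the groups overlapped and ASO replicate 1 was the lowest of all 8. Its log2 fold change was 0.09 (95% confidence interval -0.06 to 0.24, adjusted p = 0.41), an interval that lies below that of Calr (0.43 to 0.75); the difference between these genes was not tested. The promoters of both hold the ER stress element shown above. Hyou1, the exchange factor for BiP, had a log2 fold change of 0.12, Dnajb11 0.19, Manf, a secreted factor induced by ER stress, 0.18, and Canx, the membrane-bound counterpart of calreticulin, 0.16, with adjusted p from 0.12 to 0.32. In Manf the control libraries were at 238 to 248 TPM, ASO replicates 1 and 2 at 238 and 248 TPM and ASO replicates 3 and 4 at 301 and 289 TPM. Hyou1 had the same pattern, with 53.4 to 55.5 TPM in control, 52.0 and 54.4 TPM in ASO replicates 1 and 2, and 63.9 and 64.3 TPM in ASO replicates 3 and 4. Within samples 3 and 4 alone Manf (0.33), Dnajb11 (0.33), Hyou1 (0.26) and Canx (0.24) passed, with adjusted p of 0.0025, 0.0052, 0.014 and 0.035.

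Of the 3 J-domain partners of BiP among the members, Dnajb11 was above 0 without passing, as given above, and Dnajb9 fell. Dnajb9, known as a target of XBP1, was at 19.7, 17.0, 19.9 and 19.4 TPM in control and 12.7, 16.3, 15.8 and 14.3 TPM with the ASO. All ASO libraries lay below all controls (log2 fold change -0.34 ± 0.09, adjusted p = 0.022). It did not pass when control replicate 1, control replicate 4 or ASO replicate 4 was left out (adjusted p up to 0.056), nor within samples 1 and 2 alone (-0.35, adjusted p = 0.13). Dnajc3, the third of them, whose product inhibits PERK, was at -0.14 ± 0.07 (adjusted p = 0.23), with -0.33 within samples 1 and 2 alone (adjusted p = 0.015) and 0.06 within samples 3 and 4 alone (adjusted p = 0.65).

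Of the 7 genes for disulfide bond formation 3 rose and 0 fell, against 7.11% and 7.53% of all tested genes. Pdia4, a protein disulfide isomerase gene (gene 12304, chromosome 6, 47796141 to 47813512), was at 107, 93.6, 108 and 98.2 TPM in control and 124, 139.7, 132 and 150.5 TPM with the ASO (log2 fold change 0.45 ± 0.07, adjusted p = 0.0016). Pdia6, another isomerase gene, was at 356, 333, 369 and 324 TPM in control and 411, 441, 438 and 457 TPM with the ASO (0.36 ± 0.06, adjusted p = 0.0026). Pdia3, whose product works with calreticulin and calnexin on glycoproteins, was at 482, 420.3, 511 and 443 TPM in control and 529, 569, 555 and 577 TPM with the ASO (0.28 ± 0.07, adjusted p = 0.013). In each of these genes the lowest ASO library was above the highest control library, and each passed within samples 1 and 2 alone and within samples 3 and 4 alone.

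The other isomerases were nearer to 0. P4hb, which encodes the founding member of the family and also a subunit of collagen prolyl 4-hydroxylase, was at 702 TPM in control and 718 TPM with the ASO, a log2 fold change of 0.05 (95% confidence interval -0.07 to 0.18). Pdia5 was at 0.10 and Txndc5 at 0.09; in Txndc5 the ASO libraries (251 to 259 TPM) lay just above the controls (233 to 249.96 TPM) without passing the test (adjusted p = 0.28). Ero1b, which encodes an oxidase that recharges the isomerases, was low and did not pass (-0.11, 95% confidence interval -0.40 to 0.19).

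Of the 3 genes for chaperones of collagen 1 rose, against 7.11% of all tested genes. Serpinh1, the collagen-specific chaperone also called HSP47 (gene 12406, chromosome 7, 99345375 to 99353239), was at 523, 500.4, 461 and 436 TPM in control and 569, 587, 556 and 578 TPM with the ASO. The groups did not overlap (log2 fold change 0.27 ± 0.06, adjusted p = 0.011), although the gene did not pass within samples 1 and 2 alone (0.17, adjusted p = 0.12). The prolyl isomerase genes Ppib (0.10) and Fkbp10 (0.08), which act on the same client, did not pass. The 4 genes of ER-associated degradation, the route by which misfolded proteins are returned to the cytosol, did not pass either. Edem1, a mannose-trimming gene, had the highest value and was the 1 gene of the 4 with an unadjusted p under 0.05 (0.16 ± 0.05, adjusted p = 0.069), with ASO libraries at 19.3 to 21.2 TPM above controls at 17.7 to 19.1 TPM. It passed with the division of the samples as a term (adjusted p = 0.030) and with library size as the scaling (adjusted p = 0.0496). Herpud1, a scaffold of the ligase complex, was at 0.11, the ligase gene Syvn1 at 0.03 and its adaptor gene Sel1l at -0.04.

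**Figure D4:**
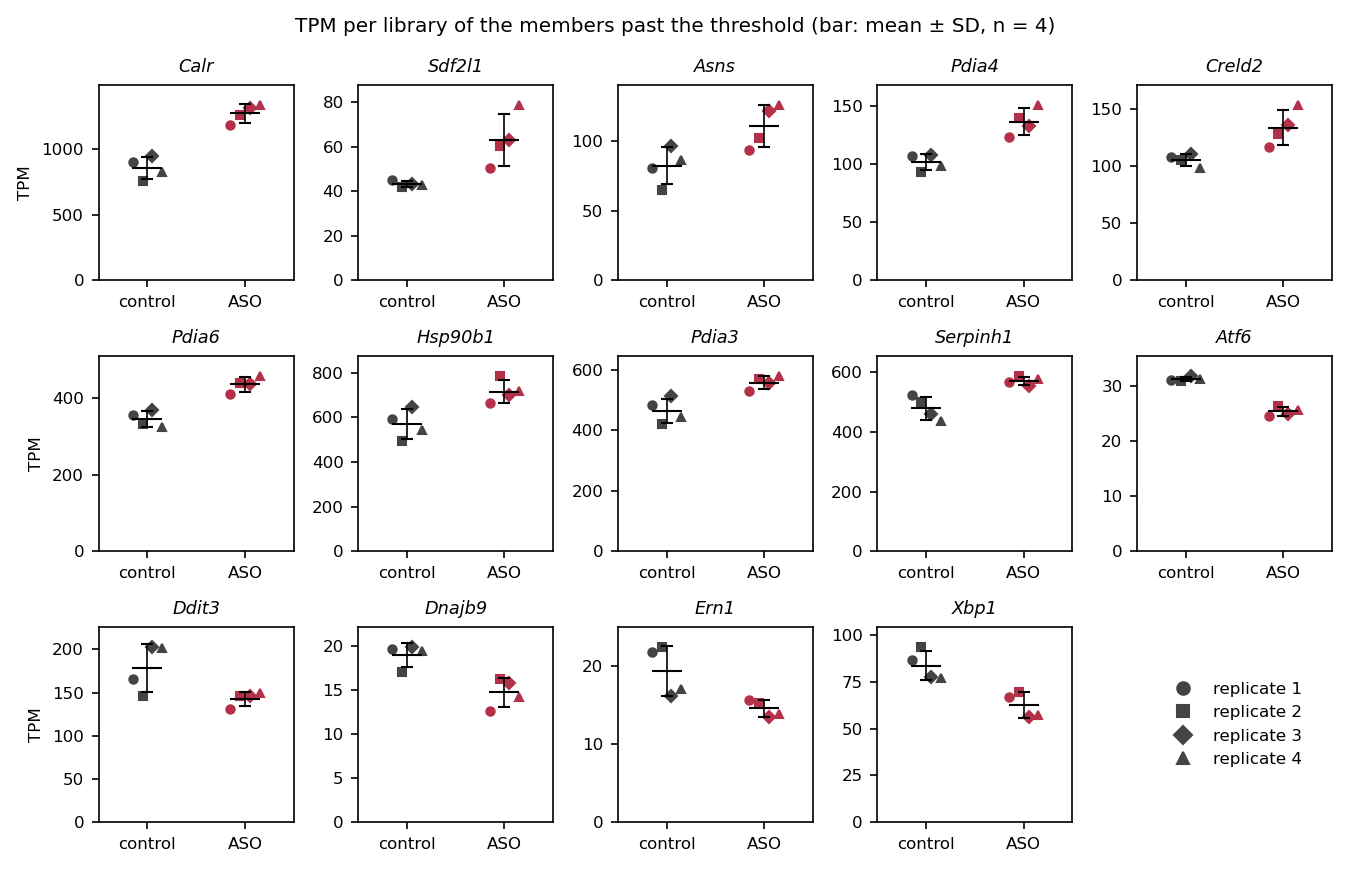
TPM per library of the 14 members past the threshold, with the mean and SD of each group (n = 4) and a symbol for each replicate number. Groups are separate in 12 of the 14 genes; in Asns and Ddit3 they overlap.

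Summed over its 25 genes, the chaperone branch took 5662 to 6237 TPM in control libraries and 6602 to 7202 TPM in ASO libraries. Without Calr the sums were 4849 to 5292 TPM and 5421 to 5868 TPM, and these ranges were also separate. Both sums hold the other higher members, whose groups were each separate on their own. They therefore do not show a rise of the members that did not pass. The sensor branch summed to 1140 to 1327 TPM in control and 1053 to 1201 TPM with the ASO, and these ranges overlapped. Most of that sum was Atf4.

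All 7 genes for sensors and transcription factors had a log2 fold change below 0, and 4 fell. Over all 12227 tested genes, 7.53% were lower and 6182 had a log2 fold change above 0. Xbp1, whose mRNA is the substrate of IRE1 (gene 22433, chromosome 11, 5520641 to 5525993), was at 86.3, 93.2, 77.5 and 77.0 TPM in control and 66.8, 69.7, 56.1 and 57.3 TPM with the ASO. All ASO libraries were below all controls, and replicates 3 and 4 were the lower ones in both groups (log2 fold change -0.40 ± 0.08, adjusted p = 0.0046). The table gives 1 value per gene, so spliced and unspliced Xbp1 mRNA are summed in it. Atf6 (gene 226641, chromosome 1, 170704457 to 170868585) had the smallest spread, at 31.0, 30.9, 31.7 and 31.3 TPM in control and 24.6, 26.3, 24.9 and 25.7 TPM with the ASO (-0.28 ± 0.05, adjusted p = 0.0031). Both falls held in each fit that left out 1 library and in each part of the samples.

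Ern1, which encodes IRE1 (gene 78943, chromosome 11, 106397620 to 106487796), was at 21.9, 22.4, 16.2 and 17.1 TPM in control and 15.7, 15.4, 13.6 and 13.9 TPM with the ASO. Control replicates 1 and 2 were clearly above 3 and 4, and the highest ASO library was just under the lowest control (log2 fold change -0.39 ± 0.10, adjusted p = 0.019). It did not pass when control replicate 1, control replicate 2 or ASO replicate 3 was left out (adjusted p up to 0.061), nor within samples 3 and 4 alone (-0.23, adjusted p = 0.051). Eif2ak3, the PERK gene, was at 8.03 to 9.76 TPM in control and 6.89 to 9.20 TPM with the ASO and did not pass (-0.17, 95% confidence interval -0.37 to 0.03).

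Of the 3 factors tied to the PERK arm 1 fell, against 7.53% of all tested genes. Ddit3, the CHOP gene, was at 166, 146, 202 and 202 TPM in control and 131, 146, 146 and 149 TPM with the ASO (log2 fold change -0.32 ± 0.10, adjusted p = 0.039). Control replicate 2 lay among the ASO libraries. The call held only without control replicate 1 or control replicate 2, and ended in the other 6 fits that left out 1 library (adjusted p up to 0.11), with library size as the scaling, on the TPM scales and within samples 1 and 2 alone. Ddit3 shares 68 exonic bases, 3.97% of its own, with Mars1 on the opposite strand, which did not pass (0.27, adjusted p = 0.070); reads of both genes there cannot be told apart where strand is not used. Atf3, a stress-induced factor gene, was at 58.9, 58.4, 40.0 and 45.9 TPM in control and 40.5, 47.8, 32.5 and 36.4 TPM with the ASO (-0.35 ± 0.12, adjusted p = 0.068). Its groups overlapped, but within samples 1 and 2 alone (-0.41, adjusted p = 0.011) and within samples 3 and 4 alone (-0.27, adjusted p = 0.026) it passed. Atf4, whose activity is known to be set largely by translation, was at 593 to 699 TPM in control and 546 to 616 TPM with the ASO (-0.14, adjusted p = 0.18). It passed with the division of the samples as a term (-0.14, adjusted p = 0.037).

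Of the 4 effectors of ATF4 and CHOP 1 was higher, against 7.11% of all tested genes, and the other 3 did not pass. Differences between these genes were not tested. Asns, the asparagine synthetase gene (gene 27053, chromosome 6, 7675165 to 7693209), was at 80.4, 65.3, 96.9 and 86.8 TPM in control and 93.8, 102, 122 and 126 TPM with the ASO (log2 fold change 0.45 ± 0.12, adjusted p = 0.022). Control replicate 3 lay above ASO replicate 1, and replicates 3 and 4 were the higher ones in both groups. It did not pass when control replicate 1 or 2 or ASO replicate 3 or 4 was left out (adjusted p up to 0.073), but it passed in both parts of the samples taken alone.

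Chac1, which encodes a glutathione-degrading enzyme induced by the ATF4 arm, was at 17.8, 19.5, 31.2 and 35.7 TPM in control and 18.1, 19.5, 21.8 and 22.4 TPM with the ASO. Control replicates 3 and 4 were well above the other 6 libraries, which were close together. The log2 fold change was -0.33 ± 0.19 (adjusted p = 0.26) over all libraries, 0.01 within samples 1 and 2 alone (adjusted p = 0.96) and -0.55 within samples 3 and 4 alone (adjusted p = 1.4e-04). Trib3, a pseudokinase gene, was at 22.6, 20.3, 24.9 and 26.1 TPM in control and 21.3, 23.7, 28.2 and 36.5 TPM with the ASO (0.25 ± 0.14, adjusted p = 0.26), and it passed within samples 3 and 4 alone (0.39, adjusted p = 0.0055). Ppp1r15a, whose product restores translation by dephosphorylating eIF2 alpha, did not pass (0.11, 95% confidence interval -0.07 to 0.30). The promoters of Asns, Chac1 and Trib3 each hold the composite motif. Their log2 fold changes were of either sign, but only that of Asns passed.

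**Figure D5:**
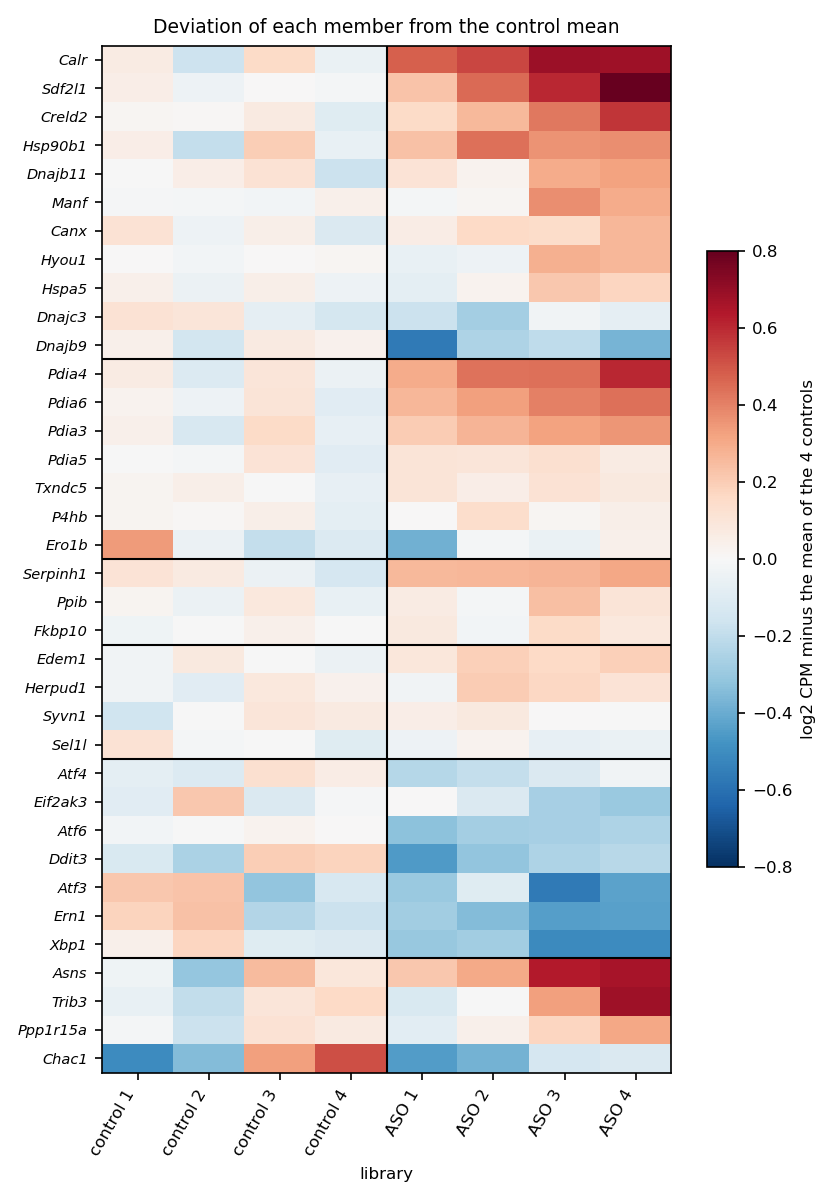
Log2 CPM (counts scaled by library size) of each member in each library minus the mean of the 4 controls, ordered by role. The median over the chaperone branch was 0.08 and 0.10 in ASO replicates 1 and 2 and 0.21 and 0.19 in replicates 3 and 4. In the 4 control libraries it was between -0.06 and 0.05. The median over the sensor branch was between -0.28 and -0.19 in the 4 ASO libraries and between -0.11 and 0.10 in the 4 controls.

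The rest of the ER machinery was read from lists of genes outside the 36, whose counts stand beside 7.11% higher and 7.53% lower over all tested genes. Earlier results of these data were known when these lists were chosen. Of 30 tested genes for other ER folding and disulfide functions 1 was higher and 1 lower, 3.33% each, with a median log2 fold change of 0.02. Of 21 genes of the translocon and signal peptide processing 0 passed, and 2, Spcs1 and Sec62, had an unadjusted p under 0.05 in edgeR. The 2 that passed among the folding genes were Cnpy3 (0.29 ± 0.07, adjusted p = 0.014), a co-chaperone of HSP90B1, and the thioredoxin-domain gene Txndc16 (-0.34 ± 0.10, adjusted p = 0.033). Of 23 further degradation genes 2 were higher (8.70%) and 0 lower (median -0.0031), a share near that of all tested genes, namely Vcp, the ATPase that extracts proteins from the membrane (0.23 ± 0.06), and Faf2 (0.20 ± 0.06). Of 20 genes for N-glycan transfer and the calnexin cycle 2 were higher and 0 lower (median 0.10), against 7.11% and 7.53% of all tested genes. These were Prkcsh, a glucosidase subunit gene (0.20 ± 0.06), and the cargo lectin gene Lman2 (0.19 ± 0.06).

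For collagen folding and export, 1 of 17 further genes was higher and 1 lower, 5.88% each and below the shares of 7.11% and 7.53% over all tested genes. They were the lysyl hydroxylase genes Plod3 (0.30 ± 0.06, adjusted p = 0.0038) and Plod2 (-0.41 ± 0.08, adjusted p = 0.0052). Plod3 went from 210.5 ± 5.92 TPM to 255 ± 5.79 TPM and Plod2 from 130.4 ± 11.6 TPM to 96.9 ± 11.9 TPM (SD, n = 4). Of 23 further sensors, proteases and regulators 3 were higher (13.0%, against 7.11%) and 0 lower (median 0.05). They were Bax (0.35 ± 0.08), Bak1 (0.33 ± 0.06) and Tmbim6 (0.29 ± 0.08), while Bok, a relative of Bax and Bak1 in the same list, did not pass (0.09, adjusted p = 0.51).

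Further targets of ATF4 and CHOP were higher in 7 and lower in 1 of 31 tested genes (median 0.15), which is 22.6% and 3.23% against 7.11% and 7.53% of all tested genes. The 4 with the smallest p were the proline synthesis gene Aldh18a1 (0.37 ± 0.08, adjusted p = 0.0074), the translation repressor gene Eif4ebp1 (0.36 ± 0.08, adjusted p = 0.012), the stress-induced mTOR inhibitor gene Ddit4 (0.38 ± 0.09, adjusted p = 0.015) and the serine synthesis gene Psph (0.36 ± 0.09, adjusted p = 0.017). Of 13 genes on a list of aminoacyl-tRNA synthetases, which also holds the tRNA exportin gene Xpot (0.05, adjusted p = 0.62), 2 were higher (15.4%, against 7.11%) and 0 lower, Eprs (0.25 ± 0.06) and Gars (0.26 ± 0.07), while all 13 had a log2 fold change above 0 (median 0.19; 6182 of all 12227 tested genes were above 0). Beside these, Atf4 itself was at -0.14 without passing and Ddit3 at -0.32.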

How the data were processed

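RNA-seq of 8 MLO-Y4 libraries (4 control, 4 ASO) was used; group and replicate number came from the sample titles. The submitters' processing notes name HISAT, Bowtie2, GRCm38.p6 and mm10, without roles; the counting tool is not given in the sources used here, nor is strandedness. The authors deposited estimated counts, FPKM and TPM per library and group means, per the file headers. The FPKM and mean columns were not used. Deposited estimated counts were rounded; 6.01% to 6.60% of a library's values were not whole, but 0 of those of the members.

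Counts were filtered with filterByExpr (minimum count 10; 12227 genes kept) and given TMM factors; edgeR 4.0.16 in R 4.3.3 made the tests (glmQLFit, glmQLFTest), group being the single term, with Benjamini-Hochberg adjustment over all tested genes at 0.05. Standard errors come from the F statistic and 95% confidence intervals from its degrees of freedom. TPM were used for levels. The procedure was run on simulated data, but its recovery of changes as small as those of the members is not given here.

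The members, branches and gene lists were chosen with earlier results of these data known. Named genes are all 36 members and, from each other list, up to 4 with the smallest p among those past the threshold; Cd68, Sox9 and other markers are named from the marker lists. List symbols without a row are not used here. Exonic overlaps with other annotated genes (GENCODE M21) occurred in 13 members, 8 of them with a partner in the table. Alternatives were DESeq2 1.42.0, scaling by upper quartile or by library size alone, a filter of 5 CPM in 4 libraries or none, limma-trend (limma 3.58.1) on log2(TPM + 1) or log2(TPM + 0.1) with a mean TPM of at least 1 or no filter, a replicate block, the sample division as a term and each part alone, each library left out, and an adjusted p under 0.01. Protein features planned for the members were not run.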

Additional observations from a re-analysis of the deposited data

How the results depend on the processing

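Each of the 14 called members kept its direction in all 20 other fits, and Calr, Pdia4, Pdia6, Pdia3, Atf6 and Xbp1 passed in each of them. With limma-trend on log2(TPM + 1) and no filter, 1167 genes of the table passed, with 3 members lower and, in the sensor branch, 2 called, both lower (2); Hsp90b1 did not pass there. With the division of the samples as a term 3136 genes passed, with 8 members lower and 9 of the sensor branch called, 7 of them lower. Samples 1 and 2 alone gave 1036 genes and 5 higher chaperone-branch members; samples 3 and 4 alone gave 14 higher members. At an adjusted p under 0.01, 702 genes and 6 members passed, 4 higher and 2 lower, these being 4 of the chaperone branch, all 4 higher, and 2 of the sensor branch, both 2 lower. Leaving out 1 library in turn gave 1105 to 1940 genes, 3 to 5 lower members, and 2 to 5 called and 2 to 4 lower in the sensor branch. The values that changed sign belonged to members that did not pass: Hspa5 (-0.021), Hyou1 (-0.039) and Chac1 (0.012) within samples 1 and 2 alone, and Dnajc3 (0.057), Ero1b (0.15) and Syvn1 (-0.084) within samples 3 and 4 alone. With 1 library left out Ero1b ranged from -0.17 to 0.021, Sel1l from -0.069 to 0.0040 and Syvn1 from -0.022 to 0.0600. The cause of these changes was not tested.

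Libraries with the same replicate number had correlations of their deviations of 0.05, 0.14, 0.21 and 0.13, so the numbers were not taken to pair them, and 1 library pair, number 4, correlated best with its own number. A replicate block gave 2575 genes and 15 members, the one more being Atf3. With 4 libraries a group, members whose intervals span 0 are not shown to be unchanged.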
